A study of Mus musculus with 14 samples.

Results

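Pecam1, Cdh5 and 7 further genes of endothelial cell contacts, namely Cldn5, Esam, Jam2, Jam3, F11r, Tjp1 and Ocln, were examined in lymphatic endothelial cells from the medullary and the subcapsular sinus of the mouse lymph node. They were chosen by name for their place at the junction between endothelial cells, and are 9 of the 34797 genes named on the array. Each gene was read from the probe with the highest mean log2 signal over all arrays, and any further probe of the gene served as a check, which gave 12 probes in all. The clearest pattern concerned Pecam1. It was high in cells cut from both sinuses and in sorted subcapsular cells, and 298-fold lower in sorted medullary than in sorted subcapsular cells, although with 2 samples each no gene passed the test over all genes in that comparison.

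The 14 samples formed 4 groups, all from C57Bl/6 mice with no genetic alteration named and no age given. Medullary FACS and subcapsular FACS comprised 2 samples each of 1200 cells, sorted by fluorescence after enzymatic digestion of the nodes, with antibodies to CD73 and podoplanin, a cocktail against other lineages and the dead-cell dye 7-AAD. Medullary LCM and subcapsular LCM comprised 5 samples each of 50 cells, cut by laser-capture microdissection out of frozen sections after staining for F4/80 and CD31. LCM drew on axillary, brachial and inguinal nodes, whereas sorting also drew on mesenteric, renal, lumbar, caudal, popliteal and cervical nodes. The medullary sinus lies on the efferent side and the subcapsular sinus receives the afferent lymph. The labels do not say which combination of CD73 and podoplanin defined each sorted population, nor do they tie samples to animals or say whether animals were pooled. The p-values below therefore measure the spread between these samples, some of which may share an animal. CD31 is the protein of Pecam1 and was the stain by which cells were picked in LCM from both sinuses, so that a Pecam1 signal in LCM samples is set by the design. The sort did not use CD31.

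At adherens junctions of endothelium the VE-cadherin molecules of neighbouring cells bind each other and link through catenins to actin. Tight junctions add the strand proteins claudin-5 and occludin, which are tied to the cell cortex by ZO-1, and the junctional adhesion molecules and ESAM, which belong to the immunoglobulin superfamily. CD31 holds neighbouring endothelial cells together by binding itself and takes part in leukocyte passage and flow sensing. In lymphatic vessels these proteins form discontinuous button-like contacts in initial capillaries and continuous zipper-like contacts in collecting vessels. In the lymph node, lymphatic endothelium lines sinuses through which cells and fluid pass.

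The Pecam1 probe is shown because the largest differences of the group rest on it. It covers chr11:106540864-106540923 on the minus strand of mm9 and was assigned in the files to the RefSeq transcript NM_001032378. The second sequence is a check probe of Jam2 (NM_023844, chr16:84816558-84816617, plus strand), shown because its signal went apart from that of the probe used for Jam2. Both are printed 5′ to 3′ as the files give them, with no part marked.
Pecam1: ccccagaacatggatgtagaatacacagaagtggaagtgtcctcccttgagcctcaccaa
Jam2, check probe: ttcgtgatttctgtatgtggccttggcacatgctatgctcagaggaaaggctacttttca
The Pecam1 sequence has no stop codon in 1 of its 3 forward frames and the Jam2 check sequence has none in 2. All 12 probes are 60 bases long, and their GC content was 50% for Pecam1, 45% for the Jam2 check probe and 35% to 55% over the members. The other probes used lie, on mm9, at chr8:106668159-106668218 for Cdh5 (NM_009868), chr16:18778046-18778105 for Cldn5 (NM_013805), chr9:37345795-37345854 for Esam (NM_027102), chr16:84824952-84825011 for Jam2, chr9:26905298-26905357 for Jam3 (NM_023277), chr1:173393848-173393907 for F11r (NM_172647), chr7:72441126-72441185 for Tjp1 (NM_009386) and chr13:101268529-101268588 for Ocln (NM_008756). Exon annotation on that build was not used here.

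Levels are given as the log2 of the background-adjusted intensity over the 75th percentile of the same array, so that 0 is the level of that percentile. They are set against each other only within a probe. A difference is called at a limma adjusted p under 0.05 over all genes tested. Of all probes, 69.05% and 78.97% were well above background in medullary FACS, against 66.29% and 77.85% in subcapsular FACS, and 67.36% to 75.32% in medullary LCM, against 50.78% to 69.03% in subcapsular LCM. In FACS the sinus cannot be told apart from the array row, since the medullary arrays lay in row 2 and the subcapsular ones in row 1. Both FACS groups and medullary LCM replicates 4 and 5 lay on slide 2, and all other LCM arrays on slide 1. For bulk samples such as these, fewer cells of a type and less RNA per cell cannot be told apart.

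The labelled cell type was checked against 7 lymphatic endothelial marker genes. Prox1, the transcription factor of lymphatic identity, was above background on every array, at −1.24 and −0.39 in medullary FACS, −4.37 and −1.14 in subcapsular FACS, −3.74 to −1.69 in medullary LCM and −3.47 to −0.3 in subcapsular LCM. Other markers were absent from some groups. Lyve1 and Mmrn1 were not above background on either medullary FACS array, and Flt4 on neither subcapsular FACS array. Pdpn encodes podoplanin, an antigen of the sort, and averaged −0.92 in medullary FACS against −5.25 in subcapsular FACS. That difference was 4.33 ± 0.74 (SE, limma adjusted p = 0.0816), did not pass, and entered the test only through the medullary samples. Its sign was opposite to that of Pecam1 below. In LCM the Pdpn probe was detected in 4 medullary samples and 1 subcapsular sample. Of the 7 markers, 4 were above background on each medullary FACS array, 4 or 5 in subcapsular FACS, 4 to 7 in medullary LCM and 3 to 5 in subcapsular LCM.

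Pecam1 stood at −3.36 and −3.83 on the medullary FACS arrays, against 3.97 and 5.27 on the subcapsular FACS arrays. In LCM it stood at 4.76, 5, 4, 4.91 and 5.45 in medullary replicates 1 to 5, against 1.12, 6.83, 5.04, 4.55 and 3.38 in subcapsular replicates 1 to 5. Only the medullary FACS samples were low, and they lay below each of the other 12 arrays. Before scaling, the probe had an intensity of 23.9 and 17.3 in medullary FACS, against 7170 and 15900 in subcapsular FACS, and it was above background on all 14 arrays. The dimmest signals that passed as above background on the medullary FACS arrays were at −4.634 and −4.506, so that Pecam1 was dim there. Between the sinuses Pecam1 differed by −8.22 ± 0.74 in FACS (log2, SE, n = 2 each, limma adjusted p = 0.0645), which did not pass, as no gene did in that comparison. Over 15 alternatives this difference lay between −9.08 and −6.38. The same difference in LCM was 0.64 ± 0.93 (SE, n = 5 each, limma adjusted p = 0.829). The sinus difference itself differed between the isolations, by −8.86 ± 1.41 (FACS minus LCM, SE, limma adjusted p = 0.0122), and that call ended without subcapsular FACS replicate 7 (adjusted p = 0.135) and with the slide as a block (adjusted p = 0.0733). Within the medullary sinus Pecam1 fell in FACS relative to LCM, with a difference of −8.42 ± 1 (SE), or 342-fold (limma adjusted p = 0.000289), and on slide 2 alone, with 2 arrays of each, the difference was −8.78 (adjusted p = 0.123). Within the subcapsular sinus the difference was 0.44 ± 1 (SE, limma adjusted p = 0.881). In order of mean level the groups ran from medullary FACS (−3.6 ± 0.33, SD, n = 2) through subcapsular LCM (4.18 ± 2.12, SD, n = 5) and subcapsular FACS (4.62 ± 0.92, SD, n = 2) to medullary LCM (4.82 ± 0.53, SD, n = 5), and the last 3 did not differ beyond their spread.

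Cdh5, which encodes VE-cadherin, stood at −6.51 and −5.16 in medullary FACS, neither above background, against −3.12 and −2.22 in subcapsular FACS. The LCM levels were −0.82, −1.27, −0.88, −0.45 and −0.28 in medullary replicates 1 to 5, against −0.91, −4.8, −0.9, −0.93 and −1.86 in subcapsular replicates 1 to 5. The low subcapsular value, replicate 2, was not above background, and the other arrays of the 2 LCM groups overlapped. For a group with every array below background a fold is a lower bound, taken against each array's dimmest signal that passed as above background, or the measured signal if brighter. Cdh5 was at least 3.74-fold lower in medullary than in subcapsular FACS (difference −3.17 ± 0.8, SE, limma adjusted p = 0.113), and this did not pass. With normexp background correction the difference was −0.23. In LCM it was 1.14 ± 0.77 (SE, limma adjusted p = 0.602), and without subcapsular replicate 2 it was 0.41. Cdh5 fell in FACS relative to LCM in the medullary sinus, at least 14.2-fold (difference −5.09 ± 0.86, SE, limma adjusted p = 0.00381), and the difference was −1.55 with normexp background correction (adjusted p = 0.0165). The subcapsular samples of the 2 isolations overlapped and differed by −0.79 ± 0.86 (SE, limma adjusted p = 0.739). The interaction of Cdh5 was −4.31 ± 1.22 (SE, limma adjusted p = 0.0897) and did not pass. The medullary FACS arrays thus had the lowest mean of Cdh5, followed by subcapsular FACS (−2.67 ± 0.64, SD), subcapsular LCM (−1.88 ± 1.68) and medullary LCM (−0.74 ± 0.39), with subcapsular FACS and subcapsular LCM, and likewise both LCM groups, within their spread.

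**Figure D1:**
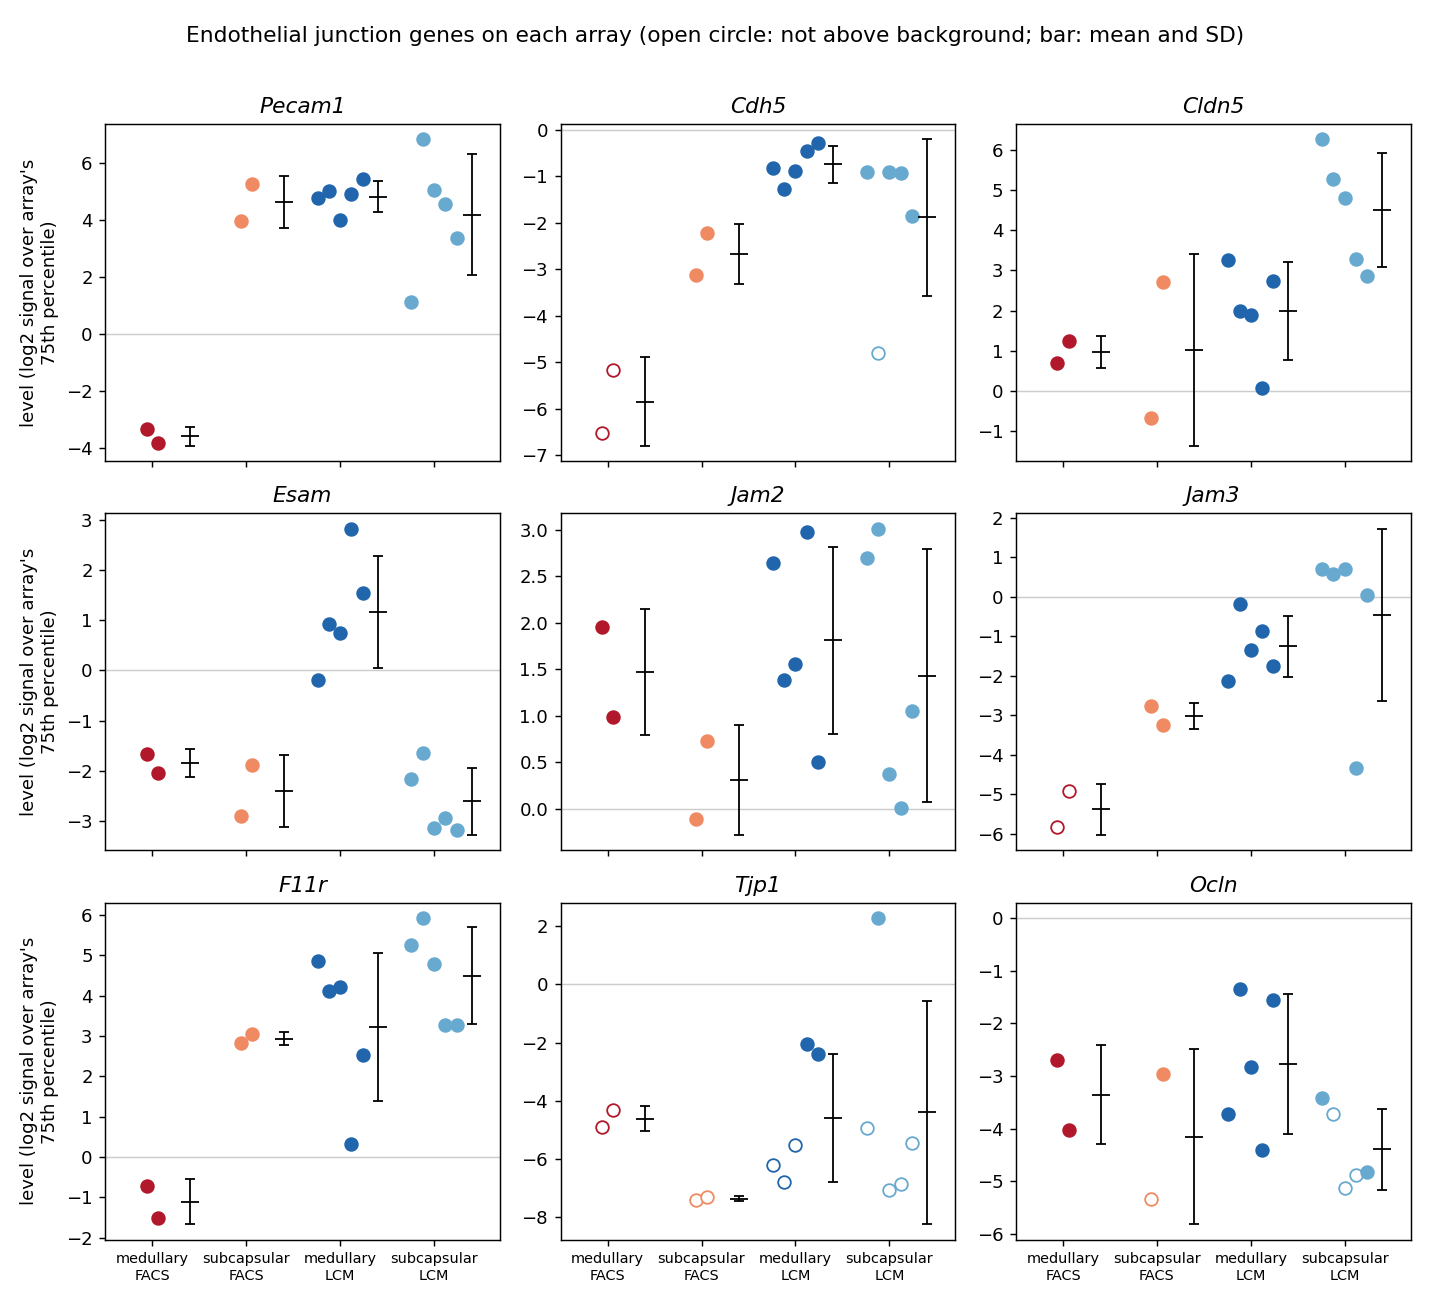
Level of the 9 junction genes on each of the 14 arrays (log2 signal over the array's 75th percentile), by group. Filled circles are above background, open circles are not, and the bars give the mean and SD. Pecam1 lies between −3.83 and −3.36 in medullary FACS and above 1 on every other array.

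Cldn5, the claudin of endothelial tight junctions, stood at 0.7 and 1.25 in medullary FACS, against −0.67 and 2.71 in subcapsular FACS. Among LCM samples it stood at 3.27, 2, 1.88, 0.06 and 2.73 in medullary replicates 1 to 5, against 6.27, 5.28, 4.81, 3.29 and 2.85 in subcapsular replicates 1 to 5. It was above background on all arrays, and subcapsular LCM samples were mostly the higher ones, with an overlap between medullary replicate 1 and subcapsular replicate 5. The difference in LCM was −2.51 ± 0.82 (SE), with an exact two-sided permutation p = 0.0159 for this gene alone and a limma adjusted p = 0.3 over all genes, and it did not pass. On slide 1 alone it was −2.12, with the array row as a block −2.42, and it lay between −2.92 and −1.64 under all 23 alternatives. In FACS the sinuses differed by −0.05 ± 1.33 (SE, limma adjusted p = 0.98), where the subcapsular arrays lay 3.38 apart. In the subcapsular sinus Cldn5 differed by −3.48 ± 1.05 between FACS and LCM (SE, limma adjusted p = 0.169), with no overlap of the groups, and by −1.79 without subcapsular FACS replicate 6 and −5.17 without replicate 7. In the medullary sinus the value was −1.02 ± 1.05 (SE, limma adjusted p = 0.596). Ranked by mean, Cldn5 stood at 0.97 ± 0.39 in medullary FACS (SD), 1.02 ± 2.39 in subcapsular FACS, 1.99 ± 1.22 in medullary LCM and 4.5 ± 1.42 in subcapsular LCM, and the first 3 were within each other's spread.

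Ocln, which encodes the strand protein occludin, stood at −2.69 and −4.02 in medullary FACS, against −5.33 and −2.96 in subcapsular FACS. For LCM the values were −3.73, −1.35, −2.83, −4.41 and −1.56 in medullary replicates 1 to 5, against −3.41, −3.72, −5.13, −4.89 and −4.82 in subcapsular replicates 1 to 5. The probe was above background on 2 of 2 medullary FACS and 1 of 2 subcapsular FACS arrays and on 5 of 5 medullary LCM and 2 of 5 subcapsular LCM arrays, and detection was not tested. The levels overlapped. The LCM difference was 1.62 ± 0.71 (SE, exact two-sided permutation p = 0.0556, limma adjusted p = 0.416), and that in FACS 0.79 ± 1.11 (SE, limma adjusted p = 0.616), or −0.39 without subcapsular FACS replicate 6. Between the isolations Ocln differed by −0.58 ± 0.89 in the medullary sinus and 0.25 ± 0.89 in the subcapsular sinus (FACS minus LCM, SE, limma adjusted p = 0.734 and 0.929). Group means of −2.78 ± 1.33 in medullary LCM, −3.36 ± 0.94 in medullary FACS, −4.15 ± 1.67 in subcapsular FACS and −4.39 ± 0.77 in subcapsular LCM (SD) left no neighbours in that order apart beyond their spread. The second Ocln probe was above background on 4 of 14 arrays. It pointed the other way in FACS (−2.81 ± 0.73, SE, limma adjusted p = 0.115), with 0 of 2 medullary and 2 of 2 subcapsular arrays above background. Tjp1, which encodes the scaffold protein ZO-1, was above background on 3 arrays only and entered no test. These were medullary LCM replicates 4 and 5, at −2.04 and −2.4, and subcapsular LCM replicate 2, at 2.27. On the other 11 arrays, both FACS groups included, the Tjp1 probe was not well above background.

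Esam, an immunoglobulin superfamily member of endothelial tight junctions, showed the clearest difference in LCM. It stood at −0.2, 0.92, 0.75, 2.82 and 1.54 in medullary replicates 1 to 5, against −2.16, −1.65, −3.14, −2.94 and −3.17 in subcapsular replicates 1 to 5. Every medullary LCM sample was higher than every subcapsular one, and the probe was above background on all 14 arrays. The difference was 3.78 ± 0.64 (SE, n = 5 each), or 13.7-fold. Its exact two-sided permutation p of 0.00794 is the smallest that 5 against 5 can give. The limma adjusted p of 0.053 over all genes did not pass, and Esam was 54th of 27380 genes by p. It passed with the percentile taken over probes above background on all arrays (adjusted p = 0.00539), with a stricter filter on dim probes (0.0275) and without medullary replicate 1 (0.0436), and the adjusted p ranged from 0.00539 to 0.262 over 23 alternatives. The difference was 3.1 on slide 1 alone and 4.29 with the array row as a block. In FACS Esam stood at −1.66 and −2.05 in medullary samples, against −2.9 and −1.89 in subcapsular samples, which overlapped (difference 0.54 ± 0.67, SE, limma adjusted p = 0.569). Within the medullary sinus Esam fell in FACS relative to LCM, with a difference of −3.02 ± 0.7 (SE), or 8.1-fold (limma adjusted p = 0.0227), and this call ended without medullary FACS replicate 7 (adjusted p = 0.0817). Within the subcapsular sinus the isolations overlapped (0.22 ± 0.7, SE, limma adjusted p = 0.918). The interaction was −3.23 ± 0.98 (SE, limma adjusted p = 0.107) and did not pass. Medullary LCM was thus the high group for Esam (1.16 ± 1.11, SD), and medullary FACS (−1.85 ± 0.28), subcapsular FACS (−2.4 ± 0.71) and subcapsular LCM (−2.61 ± 0.67) did not differ beyond their spread.

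Other endothelial genes are given beside the Esam difference. The array means of 12 pan-endothelial genes outside the members were 0.28 to 1.31 in medullary LCM, against −2.45 to −1.12 in subcapsular LCM, with 11 or 12 of the 12 above background in medullary LCM and 6 to 10 in subcapsular LCM, where Sox17 was above background on no array. The ranges did not overlap, but none of the 12 genes was called by limma. The 8 marker genes of high endothelial venules and blood endothelium averaged 1.05 to 2.03 in medullary LCM, against −2.75 to −0.68 in subcapsular LCM. Of these 8, 3 were called by limma, against 0.175% of all genes, and of the macrophage markers below none was. Among the 3, Fut7, the fucosyltransferase of high endothelial venules, stood at 2.54 to 5.24 against −3.81 to −1.89, and Darc, the atypical chemokine receptor of venules, at 1.76 to 4.19 against −2.94 to −1.14. The difference was below 0 for 1 of the 8, Sele (mean −5.92 in medullary and −3.61 in subcapsular LCM). Of the 12 pan-endothelial genes it was below 0 for 1, Kdr (0.53 and 1.18), and of all genes for 47.4%. Robo4, Emcn, Ecscr and Sox17, and Selp of the blood endothelial list, met the LCM filter only through the medullary samples. Sele met it only through the subcapsular samples. The filter thus partly set these counts. Of the 8 blood endothelial genes only Selp was above background on no subcapsular LCM array. The 11 macrophage markers ran the other way, with array means of 0.08 to 1.96 in medullary LCM and 2.58 to 4.6 in subcapsular LCM. The part of these cell type markers in the Esam difference was not tested.

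Jam2, which encodes JAM-B, a partner of JAM-C, stood at 1.95 and 0.99 in medullary FACS, against −0.11 and 0.73 in subcapsular FACS. Its LCM levels were 2.64, 1.38, 1.56, 2.97 and 0.5 in medullary replicates 1 to 5, against 2.7, 3.01, 0.38, 0.01 and 1.05 in subcapsular replicates 1 to 5. The probe was above background on all arrays, the LCM groups overlapped almost wholly, and no comparison of Jam2 passed, with differences of 1.16 ± 0.71 between the sinuses in FACS (SE, limma adjusted p = 0.293) and 0.38 ± 0.76 in LCM (SE, limma adjusted p = 0.879). The check probe printed above was above background on 8 arrays and varied far more. It lay between −5.3 and 3.14 in medullary LCM and between −7.03 and 1.08 in subcapsular LCM, with a difference of 3.24 ± 1.86 (SE, limma adjusted p = 0.532), and at −4.09 and −4.54 in medullary FACS against 0.77 and −7.21 in subcapsular FACS. The third Jam2 probe, assigned in the files to another transcript (AK045095), was above background on 1 array. Between FACS and LCM the Jam2 difference was −0.34 ± 0.83 in the medullary sinus (SE, limma adjusted p = 0.838) and −1.12 ± 0.83 in the subcapsular sinus (SE, limma adjusted p = 0.615). Its group means, by the probe used, ran from 0.31 ± 0.59 in subcapsular FACS (SD) through 1.43 ± 1.36 in subcapsular LCM and 1.47 ± 0.68 in medullary FACS to 1.81 ± 1 in medullary LCM, with no neighbours apart by more than their spread.

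Jam3, which encodes JAM-C, stood at −5.83 and −4.92 in medullary FACS, neither above background, against −2.77 and −3.25 in subcapsular FACS. The LCM samples gave −2.14, −0.19, −1.34, −0.88 and −1.76 in medullary replicates 1 to 5, against 0.7, 0.58, 0.7, −4.34 and 0.05 in subcapsular replicates 1 to 5. Apart from subcapsular replicate 4, the subcapsular LCM samples were all higher than the medullary ones. The LCM difference was −0.8 ± 0.97 (SE, limma adjusted p = 0.791), and −1.77 without that replicate (adjusted p = 0.319). In FACS, Jam3 was at least 2.95-fold lower in medullary than in subcapsular samples (−2.37 ± 0.66, SE, limma adjusted p = 0.125), which did not pass and was −0.11 with normexp background correction. Jam3 fell in FACS relative to LCM in the medullary sinus, at least 9.9-fold (−4.11 ± 1.03, SE, limma adjusted p = 0.034). That call was lost in 8 of the 14 fits that left out an array, with normexp background correction (−1.21, adjusted p = 0.207) and with the slide as a block (adjusted p = 0.168). In the subcapsular sinus the difference between the isolations was −2.55 ± 1.03 (SE, limma adjusted p = 0.338), and −3.52 without subcapsular LCM replicate 4, which then passed (adjusted p = 0.0185). Both FACS means of Jam3, −5.38 ± 0.65 in medullary and −3.01 ± 0.33 in subcapsular samples (SD), lay below both LCM means, −1.26 ± 0.76 in medullary and −0.46 ± 2.18 in subcapsular samples, and the LCM means were within their spread.

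F11r encodes JAM-A, which binds itself across tight junctions and is also made by leukocytes, platelets and epithelium. It stood at −0.72 and −1.5 in medullary FACS, against 2.83 and 3.05 in subcapsular FACS. In LCM it stood at 4.86, 4.12, 4.22, 0.33 and 2.54 in medullary replicates 1 to 5, against 5.25, 5.93, 4.8, 3.27 and 3.27 in subcapsular replicates 1 to 5. The medullary FACS samples were again below all 12 other arrays, and the LCM groups overlapped. F11r was 16.5-fold lower in medullary than in subcapsular FACS (−4.05 ± 0.62, SE, limma adjusted p = 0.0738), which did not pass, and differed by −1.29 ± 0.93 in LCM (SE, limma adjusted p = 0.629). In LCM the low medullary values, replicates 4 and 5, were the ones on slide 2, and on slide 1 alone the difference was −0.1. F11r fell in FACS relative to LCM in the medullary sinus, with a difference of −4.32 ± 0.98 (SE), or 20-fold (limma adjusted p = 0.0209). That difference was −2.54 with the slide as a block (adjusted p = 0.219), and its call also ended without medullary FACS replicate 7 (adjusted p = 0.0821). F11r in the subcapsular sinus differed by −1.56 ± 0.98 between the isolations with no overlap (SE, limma adjusted p = 0.563), where slide and isolation cannot be told apart, and by 1.4 with the slide as a block. The group means of F11r were −1.11 ± 0.56 in medullary FACS (SD), 2.94 ± 0.16 in subcapsular FACS, 3.22 ± 1.83 in medullary LCM and 4.5 ± 1.2 in subcapsular LCM, of which the middle pair and both LCM groups lay within their spread.

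Over the members, no gene of 8 tested was called between the sinuses in LCM by limma, where 0.175% of all genes were, and 1 of 8, Esam, had groups that did not overlap, against 3.09% of all genes in either direction and 1.03% with the medullary samples higher. At an unadjusted p under 0.05 there were 3 of 8, against 11.7% of all genes. In FACS 0 of 8 were called and 0% of all genes, with 4 of 8 at an unadjusted p under 0.05 against 31.9%, and 5 of 8 had groups that did not overlap against 69.6%. Of these 5, Pecam1, Cdh5, Jam3 and F11r were lower in the medullary samples and Jam2 was higher, whereas 26.7% of all genes were lower and 43% higher without overlap. Cdh5 and Jam3 were above background on neither medullary FACS array and entered this test only through the subcapsular samples. Their direction was thus largely set by the filter. Likewise Ocln entered the tests between the sinuses only through the medullary samples. With trend and robust eBayes 2 of the 8 passed in FACS (Pecam1 and F11r, with 1813 of all genes), and with all 14 arrays in 1 fit 3 did (these and Cdh5, with 3821 of all genes). The median difference of the 8 was −1.21 in FACS, against 0.74 over all genes, and 0.51 in LCM, against 0.08. The interaction was called for 1 of 8, against 1.3% of all genes, and 3 of 8 had an unadjusted p under 0.05 against 21.3%, with a median of −2.16 against 0.52. Between FACS and LCM in the medullary sinus 5 of 8 were called, all lower in FACS, against 6.5% of all genes in either direction and 3.25% lower. All 8 lay below 0 there, Jam2 and Ocln not so without medullary FACS replicate 7, against 39.1% of all genes, with a median of −3.57 against 0.47. Without overlap there were 5 of 8, all lower in FACS, against 31.3% in either direction and 10.4% lower, and 5 of 8 had an unadjusted p under 0.05 against 22.7%. The 5 calls became 3 with the slide as a block (Pecam1, Cdh5 and Esam), 2 with equal array weights (Pecam1 and Cdh5) and 0 on slide 2 alone. In the subcapsular sinus 0 of 8 were called against 1.15%, 2 of 8 had an unadjusted p under 0.05 against 11.9%, and 2 of 8, both lower in FACS, did not overlap, against 15% in either direction and 8.88% lower. The comparisons of FACS share their arrays, and those of the medullary sinus share the medullary FACS arrays, so that these counts are not independent of each other.

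**Figure D2:**
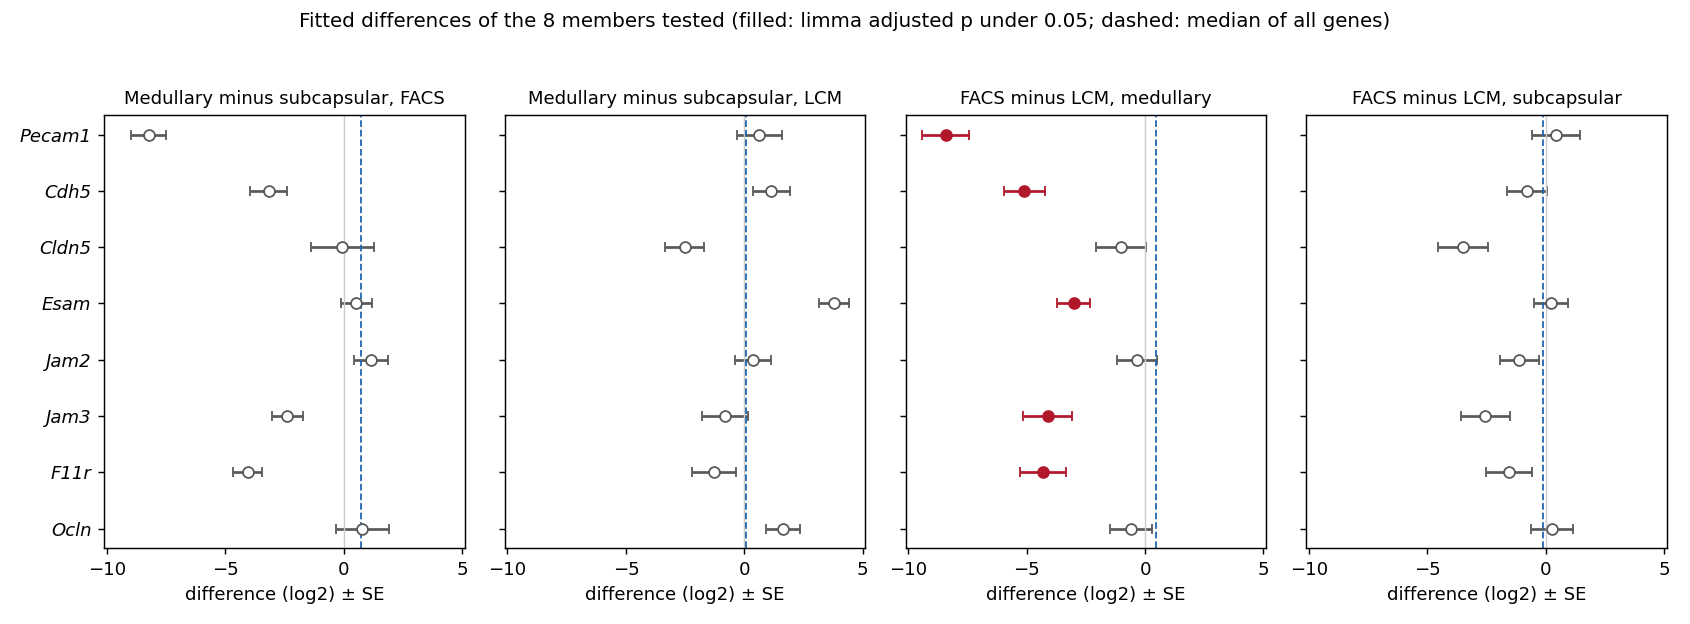
Fitted difference and SE (log2) of the 8 members tested, between the sinuses in FACS and in LCM and between FACS and LCM in each sinus. Filled points have a limma adjusted p under 0.05 and the dashed line is the median of all genes. Pecam1 is at −8.22 between the sinuses in FACS, against 0.64 in LCM, and 5 members are called between FACS and LCM in the medullary sinus.

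Marker lists of other cell types and of RNA amount were measured in the FACS samples too, and no gene of these lists was called between the sinuses by limma, as no gene was. Pan-endothelial array means overlapped and were −3.01 and −2.3, against −2.38 and −0.12 in subcapsular FACS, with a difference below 0 for 8 of the 12 genes and above 0 for 4. Of all genes 40.5% lay below 0. Erg, Sox17, Sox18 and Tie1 passed the FACS filter only through the subcapsular samples, and Ecscr and Robo4 only through the medullary ones. The filter thus partly set these signs. There were 8 and 9 of 12 genes above background in medullary FACS against 10 and 11 in subcapsular FACS. The endothelial transcription factors Erg, Sox17 and Sox18 were above background on neither medullary FACS array and on both subcapsular FACS arrays. Ecscr, an endothelial surface protein gene of the same list, ran the other way, at −3.04 and −3.01 in medullary FACS, against −7.58 and −7.52 in subcapsular FACS, where it was above background on neither array. Ptprb, Emcn and Robo4 were the others of the list with a higher mean in medullary FACS (1.92 against −0.54, −0.62 against −2.06, and −2.03 against −3.46). Kdr, which encodes the VEGF receptor VEGFR-2, stood at 0.24 to 0.88 in medullary FACS, against 1.03 to 1.57 in subcapsular FACS. The array means of 12 housekeeping genes were 1.35 and 1.74 in medullary FACS, against 3.07 and 3.21 in subcapsular FACS, and 11 of the 12 had a difference below 0, with a median of −1.52. The array means of 6 platelet and megakaryocyte genes were −2.51 and −1.45 in medullary FACS, against −4.45 and −3.34 in subcapsular FACS, and those of 8 epithelial genes, which overlapped, were −1.38 and −1.21 against −2.14 and −1. Those of 6 B cell genes were 0.95 and 1.54 in medullary FACS, against 3.66 and 3.99 in subcapsular FACS, of 6 T cell genes 0.56 and 1.24 against 1.57 and 2.05, and of 8 genes of fibroblastic reticular and mural cells −3.07 and −1.99 against −2.27 and −1.84, with an overlap in the last. The 11 macrophage markers averaged −1.02 and −0.23 in medullary FACS, against −0.18 and 1.86 in subcapsular FACS, and the 8 blood endothelial markers −1.78 and −0.69 against −0.93 and −0.28, which overlapped. The part of cell makeup and RNA amount in the member differences was not tested.

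**Figure D3:**
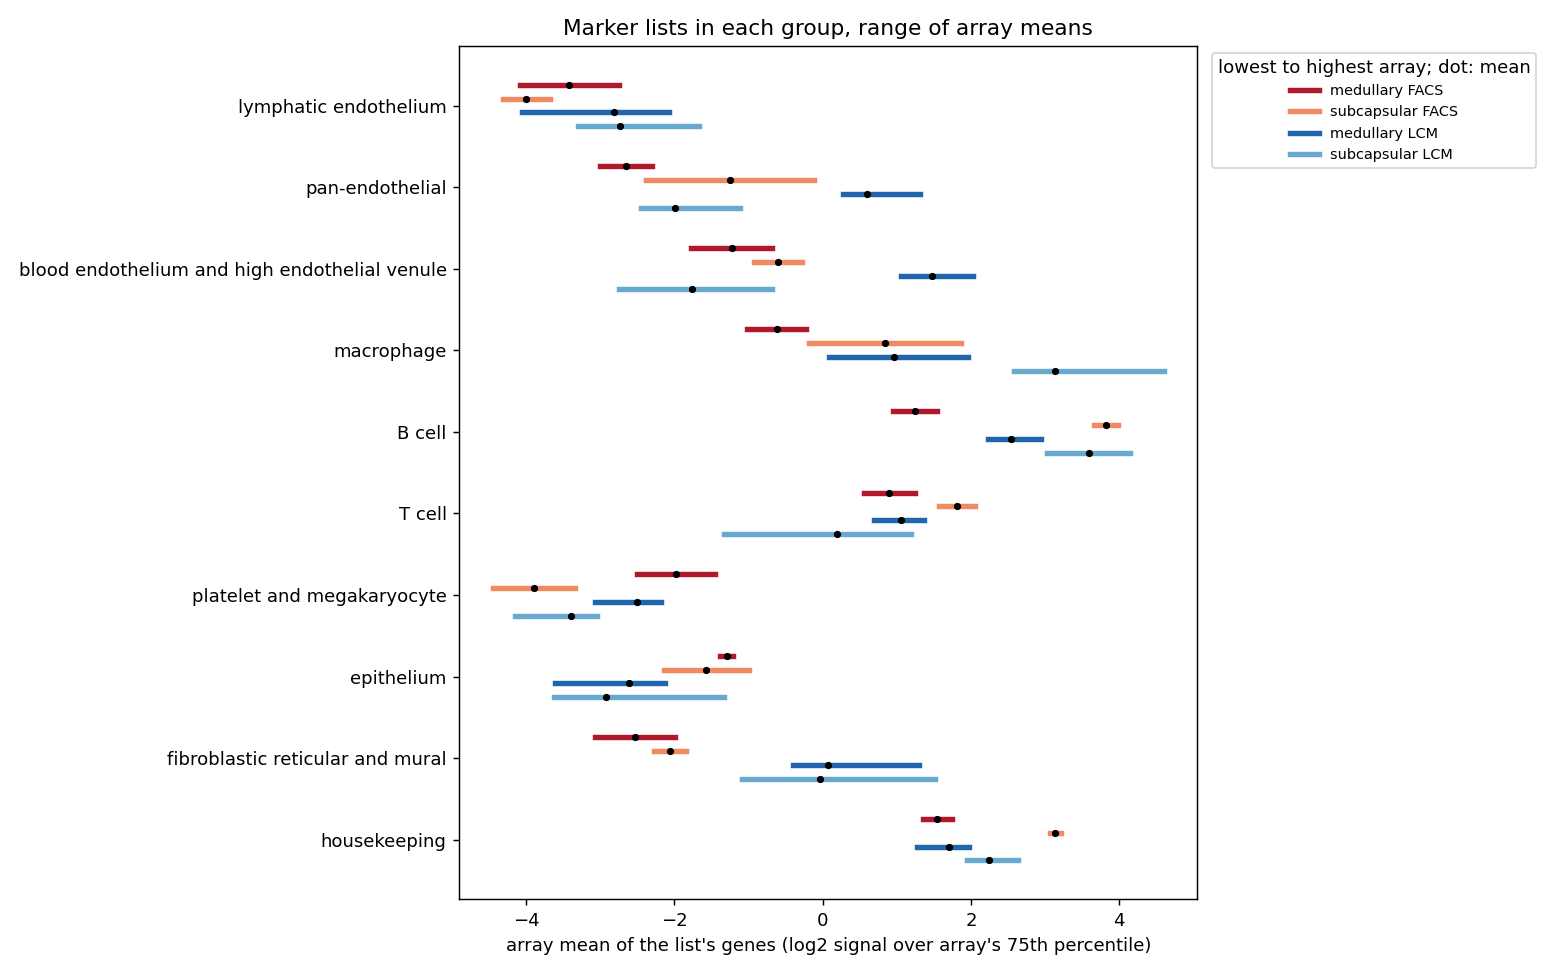
Range of the array means of each marker list (log2 signal over the array's 75th percentile) in the 4 groups, with a dot at the mean of the arrays. The pan-endothelial list lies between 0.28 and 1.31 in medullary LCM and below −0.1 on every other array, and the housekeeping list between 1.35 and 1.74 in medullary FACS against 3.07 to 3.21 in subcapsular FACS.

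A wider set of 60 junction genes in 4 lists gave 47 genes tested between the sinuses in LCM and 50 in FACS. None was called by limma in LCM, against 0.175% of all genes, or in FACS, against 0%. At an unadjusted p under 0.05 there were 6 of 47 in LCM, against 11.7% of all genes, and 15 of 50 in FACS, against 31.9%. The interaction called 0 of 52 by limma, against 1.3%, with 12 at an unadjusted p under 0.05, against 21.3%. These shares lie near those of all genes. Among adherens junction partners Ptprb, the endothelial phosphatase that acts on VE-cadherin, was higher by 3 ± 0.62 in medullary than in subcapsular LCM (SE, limma adjusted p = 0.12), and the catenin genes Ctnna1 and Ctnnb1 differed by 1.78 and −0.85. In FACS, Ctnna1 differed by −3.99 ± 1.16 and Ptprb by 2.46 ± 0.94 (SE, limma adjusted p = 0.129 and 0.166). Ptprb was called higher in FACS than in LCM in both sinuses, by 2.93 ± 0.76 in the medullary (SE, limma adjusted p = 0.0391) and 3.47 ± 0.76 in the subcapsular sinus (SE, limma adjusted p = 0.0491). It thus went opposite to Cdh5 in the medullary sinus.

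Among 21 tight junction partners, Marveld3, a relative of occludin, differed by 5.84 ± 1.24 in LCM (SE, limma adjusted p = 0.126), standing at −0.21 to 2.16 in medullary and −7.11 to −0.22 in subcapsular samples. Its signal was above background on 5 medullary LCM arrays and on 1 subcapsular LCM array. Marveld3 thus entered the LCM test only through the medullary samples, which partly sets its direction, and its size rests largely on dim subcapsular signals. In FACS the epithelial claudin Cldn4 stood at 1.29 and 1.78 in medullary samples, against −3.11 and −1.69 in subcapsular samples (difference 3.93 ± 0.77, SE, limma adjusted p = 0.0909). Of 19 tested between FACS and LCM in the medullary sinus, 3 were called, against 6.5% of all genes, all higher in FACS, namely the polarity gene Pard6b (6.29 ± 1.38, SE, limma adjusted p = 0.0177), Cldn4 (3.36 ± 0.75, adjusted p = 0.0192) and Cldn7 (1.93 ± 0.51, adjusted p = 0.0416). Pard6b passed the filters only through medullary FACS, the group in which it was then higher. Just 2 of the 5 medullary LCM arrays had a Pard6b signal above background. The direction of its difference was thus partly set by the filter, and its size rests largely on dim LCM signals. Cldn4 and Cldn7 are also 2 of the 8 epithelial marker genes. Between FACS and LCM in the medullary sinus 7 of these 8 lay above 0 and Epcam below (−1.17), where 39.1% of all genes lay below. Between the sinuses in FACS 4 lay above 0 and 4 below, against 40.5% of all genes below. Those below included Epcam (−4.24 ± 0.81, SE, limma adjusted p = 0.0895), Cdh1 (−1.92) and Krt18 (−1.56). In the subcapsular sinus Epcam was called higher in FACS than in LCM (5.63 ± 1.16, SE, limma adjusted p = 0.0367). The 10 nectin, afadin and immunoglobulin family genes tested between FACS and LCM in the medullary sinus gave 1 call, against the same 6.5%. This was Cd47, the integrin-associated protein, which was lower in FACS by 2.2 on the log2 scale (difference −2.2 ± 0.54, SE, limma adjusted p = 0.0315). The endothelial adhesion gene Mcam, by contrast, stood at 9.62 and 9.87 in medullary FACS, against 8.83 and 8.93 in subcapsular FACS, 8.95 to 9.59 in medullary LCM and 8.98 to 10.67 in subcapsular LCM.

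Among 14 tested regulators of endothelial junctions, 13 lay below 0 between the sinuses in FACS, where 40.5% of all genes did, with a median of −2.61 against 0.74. Krit1, Ccm2, Arhgap29, Sox18 and Erg were above background on neither medullary FACS array, and Rap1a, Rasip1, Pdcd10 and Heg1 on 1 of 2. These genes entered the FACS test only through the subcapsular samples, where they were higher. Amotl1 and Amotl2 entered it only through the medullary samples. The filter therefore partly sets that count and median. In LCM 9 of the 14 regulators lay below 0, where 47.4% of all genes did, with a median of −0.12 against 0.08. Krit1, a component of the cerebral cavernous malformation complex that stabilises junctions, was at least 65.9-fold lower in medullary than in subcapsular FACS (−6.7 ± 0.64, SE, limma adjusted p = 0.0645). It stood at −5.47 to −4.99 in medullary FACS, not well above background on either array, against 1.09 to 1.86 in subcapsular FACS. The GTPase gene Rap1a, which acts upstream of Krit1 and Rasip1, stood at −4.79 and −3.87 in medullary FACS, above background on 1 of 2 arrays, against −0.23 and −0.01 in subcapsular FACS (difference −4.21 ± 0.64, SE, limma adjusted p = 0.0738). Between FACS and LCM in the medullary sinus 5 of the 14 were called, all lower in FACS, against 6.5% of all genes in either direction and 3.25% lower. They were Krit1 (at least 38.7-fold, limma adjusted p = 0.0219), Rap1a (−3.15 ± 0.69, SE, adjusted p = 0.0179), the Rap1 effector Rasip1 (−5.62 ± 1.38, adjusted p = 0.0314), and the transcription factors Erg (at least 73.6-fold, adjusted p = 0.00925) and Sox18 (at least 98-fold, adjusted p = 0.0221). ERG is known to drive transcription of the VE-cadherin gene. In the subcapsular sinus 0 of 14 were called between the isolations by limma, against 1.15% of all genes, with 1 at an unadjusted p under 0.05, against 11.9%.

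**Figure D4:**
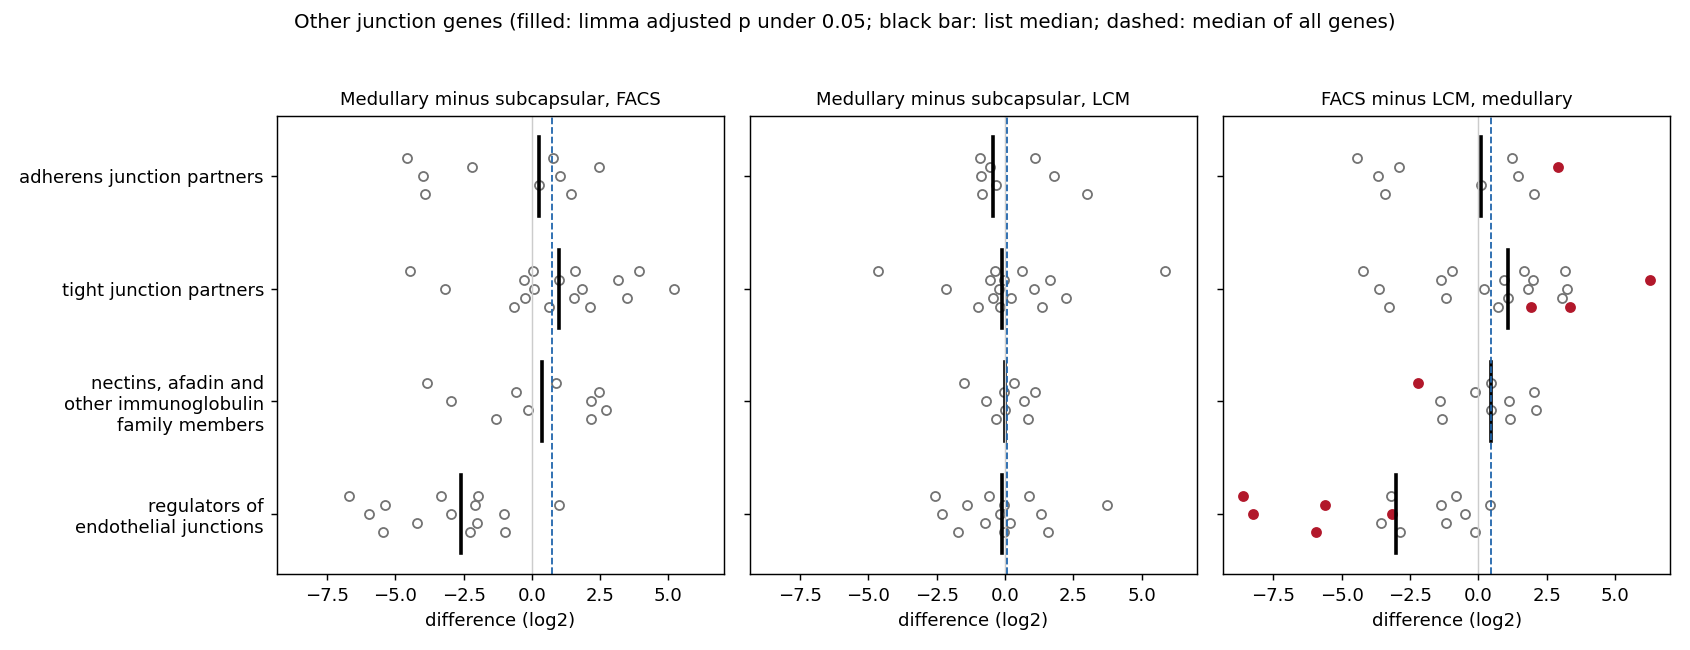
Differences (log2) of the genes tested in 4 lists of other junction genes, between the sinuses in FACS and in LCM and between FACS and LCM in the medullary sinus. Filled points have a limma adjusted p under 0.05, black bars are list medians and the dashed line is the median of all genes. Of the regulators, 13 of 14 lie below 0 between the sinuses in FACS, and the list's median is −2.61. Most of the 14 passed the FACS filter only through the subcapsular samples, where they were higher.

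The genes whose profile over the 14 arrays was most like that of Pecam1 were found by the root mean square difference between log2 profiles, each centred on its own mean, among 26246 genes above background on at least 7 arrays. They were Cyb5 (0.86), Rad17 (0.91), Mob1a (0.99), Mlxip (1) and Net1 (1.13), against a median of 3.56 over all genes. None of them is a member, and the nearest members were F11r (2.19, rank 693), Cdh5 (2.4, rank 1147) and Jam3 (2.49, rank 1417). For Cdh5 the nearest genes were Tenc1 (0.74), Tgfbi (0.81), Ssbp1 (0.86), Gnptg (0.9) and Ypel1 (0.93), with a median of 2.57 over all genes and Jam3 as the nearest member (1.98, rank 2378). The points of these profiles share arrays, isolation and slide, and likeness was not tested.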

How the data were processed

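RNA amplified with the SuperAmp method and labelled with Cy3 was hybridised to 1-colour Agilent arrays, 1 per sample, per the labels' protocols. The deposited scanner files hold an intensity per spot in arbitrary units, which Agilent Feature Extraction 10.7.3.1 corrected for background and spatial trend with no scaling between arrays, per the file headers. Probe positions are on mm9. A deposited value table holds processed log2 values, every array's median being 5.43. Its normalization is not given in the sources used here, and it served as an alternative.

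Each intensity was log2 transformed and the array's 75th percentile over 55681 non-control probes subtracted. Spots flagged as outliers were left out, which touched no member, and repeated spots averaged. Genes tested in LCM had a probe well above background in 3 or more of the 5 samples from either sinus, those tested in FACS in both samples from either sinus, and the fits over 14 arrays took genes that passed either filter. Medullary minus subcapsular and FACS minus LCM differences came from limma 3.58.1 (lmFit, eBayes; R 4.3.3), with Benjamini-Hochberg adjustment over all genes and a threshold of 0.05. The interaction and FACS minus LCM came from 1 fit with 4 group means and array weights by isolation (0.875 for LCM, 1.4 for FACS). Single members were also tested in LCM by exact two-sided permutation. Files were read with the R package data.table (version 1.17.8) and figures drawn with matplotlib 3.10.9 in Python 3.11.15, and the fits were tested on simulated data. The number of arrays limits the precision.

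All 9 members are described. Of the other junction genes, those called or the 4 with the lowest p of a list could be named. Members and lists were chosen with earlier results of these data known. Marker lists cover lymphatic, pan-endothelial and blood endothelium, macrophages, B cells, T cells, platelets, epithelium, fibroblastic reticular and mural cells, and housekeeping genes. Genes are named as in the files, where Darc is Ackr1, and Ccl21a was not analysed here. Alternatives were normexp with an offset of 50, quantile normalization, another percentile, the deposited table, other filters, the mean of a gene's probes, every probe as a feature, trend and robust eBayes, equal weights, replicate, slide and row blocks, single slides, and leaving out each array.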

Additional observations from a re-analysis of the deposited data

Results flagged for a closer look

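In subcapsular LCM, 3 single arrays stood far from the other 4 of their group, by the gap to the nearest other array over the range of the group, where 0.71 is the critical value for 5 samples. Cdh5 was at −4.8 in replicate 2 (ratio 0.755), Tjp1 at 2.27 in the same replicate (ratio 0.771) and Jam3 at −4.34 in replicate 4 (ratio 0.87). For normally spread values chance gives about 1 such value in 20 groups, and 18 groups were examined. That rate need not hold here, since the Cdh5 value and the other 4 Tjp1 values were not above background. The flags of Cdh5 and Tjp1 also share an array. None of the medullary LCM groups had one.

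The difference of Pecam1 between the sinuses was not the same in FACS and in LCM, as a test of that difference gave −8.86 (FACS minus LCM, log2, limma adjusted p = 0.0122).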

How the results depend on the processing

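No member difference past the threshold in any setting turned its sign. Called members between the sinuses in LCM numbered 0, and 1 (Esam) with the percentile taken from always-detected probes and with a stricter filter, and 0 to 1 when arrays were left out. In FACS the count was 0, and 2 with trend and robust eBayes (1813 of all genes) and 3 with all 14 arrays in 1 fit (3821 of all genes). For the interaction it was 1, and 2 with that percentile, 0 with the replicate block, 0 with the slide block, and 0 to 1 leaving out arrays. For FACS minus LCM in the medullary sinus it was 5, and 3 with the slide block, 2 with equal array weights, 0 on slide 2 alone (4 arrays), and 2 to 5 leaving out arrays, with 2 without medullary FACS replicate 7. In the subcapsular sinus it was 0, and 0 to 1 leaving out arrays. The cause of these changes was not tested.

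Of all genes, 48 were called in LCM, against 8 with normexp, 15 after quantile normalization, 16 in the deposited table, 225 with that percentile, 104 with the stricter filter, 127 with the slide block, 248 on slide 1, 14 with the row block and 23 to 104 leaving out arrays. That percentile moved the median difference of all genes in LCM to 0.81, against 0.08. The 48 split into 46 higher and 2 lower in medullary LCM, against 6 and 2 with normexp, 10 and 5 after quantile normalization, 11 and 5 in the deposited table and 32 and 7 with trend and robust eBayes. The interaction called 385 genes (166 higher, 219 lower), 683 with normexp (382 and 301), 1143 after quantile normalization, 1131 in the deposited table, 452 with that percentile (108 and 344), 256 with no filter, 109 with equal weights, 48 with the slide block, and 11 (without subcapsular FACS replicate 7) to 1242 leaving out arrays. In the medullary sinus FACS minus LCM called 1930 genes, against 648 with the slide block, 1125 with equal weights and 0 on slide 2 alone. The subcapsular sinus gave 341 (195 higher, 146 lower), against 215 after quantile normalization (90 and 125), 224 in the deposited table (92 and 132), 393 with normexp (175 and 218), 431 with that percentile (301 and 130), 119 with the slide block, 187 with equal weights, and 119 without subcapsular FACS replicate 7 to 441. The correlations of same-numbered deviations in LCM lay between −0.02 and 0.005, which shows no pairing by replicate number but cannot tell whether samples share an animal. Blocking on the replicate number left 0 genes called in LCM, FACS and the interaction, in fits with fewer degrees of freedom. Cdh5 in medullary FACS, Jam3 there and Tjp1 on 11 arrays were not well above background, which limits their folds to bounds or leaves none.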
